A study of Mus musculus with 18 samples.

Results

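The regions described here are accessible sites at the ends of long non-coding RNA (lncRNA) genes that stand alone, away from protein-coding genes. They were taken from a list of 211682 consensus ATAC-seq peaks on the mouse build mm10. A peak was included if it lay on chromosomes 1 to 19 and overlapped the 1000 bp on either side of an outermost end of a RefSeq lncRNA gene whose body was more than 5 kb from every protein-coding gene body. Of 208005 autosomal peaks, 4300 met this rule (2.07%), and they covered 2.36 Mb. They lay at 3009 of 6233 stand-alone lncRNA genes. Peak positions and gene positions alone chose the regions, so their presence at gene ends is given by the rule. The rule also bears on other values: selection by overlap favours wide peaks, and the limit of 5 kb sets the lower bound of most distances to coding genes.

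ATAC-seq uses the Tn5 transposase to cut and tag open DNA. The cells were primary cortical neurons from CD1 mouse embryos (E14.5-15), kept in the mitotic inhibitor cytosine arabinoside at 2 µM, transduced with lentiviral short hairpin RNAs (shRNAs) on day 6 and harvested on day 11. The 18 samples comprised 5 with a control and a scrambled shRNA, 3 with a control and an Atf4 shRNA, 5 with an Opa1 and a scrambled shRNA, and 5 with an Opa1 and an Atf4 shRNA, so that every sample carried a pair of lentiviral shRNAs. Opa1 encodes the GTPase that fuses the inner mitochondrial membrane, and Atf4 a transcription factor that is translated under cellular stress. The groups are laid out so that the effect of Atf4 knockdown could be compared with and without Opa1 knockdown. The list gives neither samples nor groups, so no knockdown could be compared and no value below has an SD or a number of cultures. Depth per sample is unknown. A peak of this bulk list can come from any of the cells in the cultures. All 5 neuronal and all 3 excitatory cortical marker genes checked had a peak within 1000 bp of an end, as did 1 of 3 astrocyte, 1 of 3 oligodendrocyte, 0 of 3 microglia and 0 of 3 hepatocyte genes. The share among all 20554 autosomal protein-coding genes was 72.2%, so these few genes do not settle which cells the peaks came from.

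LncRNA genes are transcribed by RNA polymerase II like protein-coding genes but yield RNAs without a long reading frame. Some act as RNAs, such as Malat1 and Neat1 in nuclear bodies, some host microRNAs or small nucleolar RNAs in their introns or exons, and for others transcription or the DNA element at the start is thought to matter more than the RNA. Many arise from the same open DNA as a coding promoter or an enhancer, and the distance of more than 5 kb used here leaves out those that begin beside a coding promoter. Brain tissue expresses an unusually wide range of them.

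The first 5 promoters below lie under wide peaks and hold more CG dinucleotides than most stand-alone lncRNA starts with a peak. At those starts the median was 5 per promoter (quartiles 3 and 9). The first 5 are those under the 5 widest peaks over a start among the genes named here with a promoter entry, and the last, of a gene with no peak at either end, was added for contrast after its values were seen. Each runs 5′ to 3′ along the gene's strand from 250 bases before the annotated start to 50 bases after it, from RefSeq (GRCm38.p6). Capitals mark CG dinucleotides, the pairs that are frequent in the CpG-rich promoters of broadly used genes.
Gm51701, chr9:123924898-123925197, plus strand: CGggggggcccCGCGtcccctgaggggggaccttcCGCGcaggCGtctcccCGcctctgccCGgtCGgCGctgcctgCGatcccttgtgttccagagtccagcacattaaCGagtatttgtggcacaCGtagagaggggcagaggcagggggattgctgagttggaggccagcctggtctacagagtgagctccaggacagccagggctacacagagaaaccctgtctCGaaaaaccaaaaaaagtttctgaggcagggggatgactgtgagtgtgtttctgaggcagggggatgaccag
B330016D10Rik, chr4:141545912-141546211, plus strand: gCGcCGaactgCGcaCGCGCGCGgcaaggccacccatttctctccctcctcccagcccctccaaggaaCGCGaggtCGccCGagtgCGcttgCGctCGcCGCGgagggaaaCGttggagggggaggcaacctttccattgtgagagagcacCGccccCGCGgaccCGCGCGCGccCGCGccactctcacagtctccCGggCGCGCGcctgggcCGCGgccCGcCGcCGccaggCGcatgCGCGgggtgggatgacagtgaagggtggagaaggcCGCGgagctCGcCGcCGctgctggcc
Miat, chr5:112228899-112229198, minus strand: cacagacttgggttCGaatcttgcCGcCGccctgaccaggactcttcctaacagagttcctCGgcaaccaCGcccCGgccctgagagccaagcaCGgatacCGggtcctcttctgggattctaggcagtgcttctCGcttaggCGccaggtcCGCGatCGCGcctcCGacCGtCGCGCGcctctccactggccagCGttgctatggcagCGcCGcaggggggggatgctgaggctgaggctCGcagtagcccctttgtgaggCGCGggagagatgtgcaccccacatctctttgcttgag
C130071C03Rik, chr13:83721131-83721430, plus strand: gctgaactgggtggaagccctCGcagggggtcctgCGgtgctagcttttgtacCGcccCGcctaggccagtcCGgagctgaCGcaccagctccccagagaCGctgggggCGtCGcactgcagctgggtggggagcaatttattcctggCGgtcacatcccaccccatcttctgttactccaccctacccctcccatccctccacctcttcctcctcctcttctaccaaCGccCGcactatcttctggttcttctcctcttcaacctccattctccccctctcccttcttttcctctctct
Snhg5, chr9:88522848-88523147, minus strand: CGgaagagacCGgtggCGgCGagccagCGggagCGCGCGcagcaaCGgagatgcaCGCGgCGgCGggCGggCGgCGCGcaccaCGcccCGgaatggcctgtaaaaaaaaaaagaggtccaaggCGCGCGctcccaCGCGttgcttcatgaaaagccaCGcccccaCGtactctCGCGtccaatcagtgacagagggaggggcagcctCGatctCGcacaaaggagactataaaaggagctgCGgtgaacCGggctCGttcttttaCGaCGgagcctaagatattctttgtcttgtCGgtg
Mir17hg, chr14:115044140-115044439, plus strand: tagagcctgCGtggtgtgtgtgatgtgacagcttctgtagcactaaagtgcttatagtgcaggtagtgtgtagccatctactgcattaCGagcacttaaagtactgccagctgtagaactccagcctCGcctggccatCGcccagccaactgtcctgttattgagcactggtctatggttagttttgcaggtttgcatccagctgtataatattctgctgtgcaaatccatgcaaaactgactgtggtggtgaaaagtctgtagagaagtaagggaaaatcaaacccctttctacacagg

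These promoters held 14 CG dinucleotides at Gm51701, 43 at B330016D10Rik, 25 at Miat, 12 at C130071C03Rik, 36 at Snhg5 and 4 at Mir17hg. The peaks over the first 5 starts were 2899, 2241, 2058, 1774 and 1402 bp wide. The Snhg5 promoter, of a small nucleolar RNA host gene, also held CCAAT at 72 bases and TATAAA at 23 bases before the start. The window of Mir17hg, host of the microRNA cluster of that name, overlapped the hairpins of Mir20a (chromosome 14, 115044157 to 115044263), Mir19b-1 and Mir92-1, so the RefSeq start of this gene lies within the cluster. The nearest peaks lay 1734 bp and 2925 bp before that start and were 866 and 1254 bp wide. Both fell outside the window of 1000 bp around the annotated start.

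Accessible sites were found at the ends of 48.3% of stand-alone lncRNA genes, and at their starts more often than at their finishes. Of the 6233 genes, 1933 had 1 such peak, 773 had 2 and 303 had 3 or more, up to 5. The promoter table gave a strand for 4759 of them, and for none of the 240 on chromosome 18. Values by start, finish or promoter of these genes therefore leave that chromosome out. Of the 4759 genes, 1673 had a peak within 1000 bp of the start (35.2%) and 1176 within 1000 bp of the finish (24.7%). A peak was at the start alone for 1130 genes, at the finish alone for 633, at both for 543 and at neither for 2453. A position anywhere in the 1281 Mb of autosomal sequence more than 5 kb from coding genes had a peak within 1000 bp in 13.3% of cases. Both kinds of end therefore had values above that of the sequence the genes lie in. No test was run for these or the following differences, since regions and genes of 1 list are not replicates.

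Around the start, coverage by peaks formed a sharp maximum, and around the finish there was only a small rise inside the gene. The base at the start itself was covered by a peak in 17.4% of the 4759 genes, against a median of 5.11% at 4 to 5 kb on either side. At the finish the value was 5.21%, with 7.35% at 400 bp before it, inside the gene, and 5.79% on its flanks. Peaks covered 2.96% of all sequence more than 5 kb from coding genes, so the flanks of these lncRNA genes were also above that sequence, out to the 5 kb examined. Among 16456 protein-coding genes with a strand, 57.3% had a peak over the start and 5.68% over the finish. Thus starts of stand-alone lncRNA genes carried a peak less often than coding starts did, while at the finish base itself both kinds had similar values. Around the finish they differed. Coverage was highest inside the gene at lncRNA genes (7.35%) and beyond the finish at coding genes (8.84% at 800 bp).

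**Figure D1:**
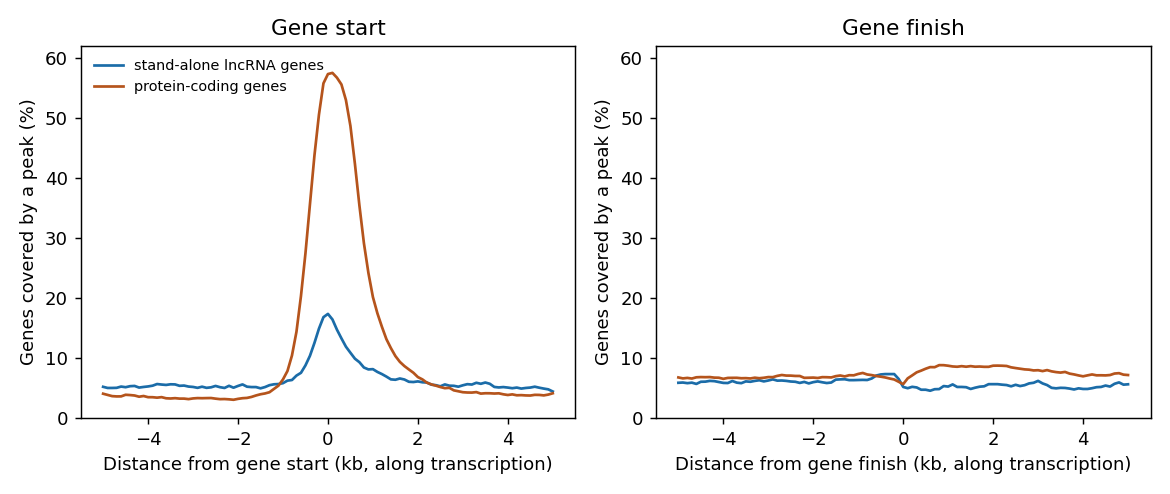
Percent of genes covered by a peak (y axis) by distance in kb along the direction of transcription (x axis), around gene starts (left) and finishes (right), for 4759 stand-alone lncRNA genes and 16456 protein-coding genes. The lncRNA line reaches 17.4% at the start and the coding line 57.5% at 100 bp after it, and around the finish the lncRNA line reaches 7.35% and the coding line 8.84%.

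At lncRNA genes within 5 kb of a coding gene the share with an end peak, and the share with a peak over the start, lay between those of stand-alone and of coding genes, while the share over the finish was the highest of the 3. Of 6089 such genes 65.1% had a peak at an end, and of the 4532 with a strand 36.3% had one over the start and 6.47% over the finish. Of all 20554 autosomal protein-coding genes, 72.2% had a peak at an end. Stand-alone genes of 5 kb or more, whose end windows do not overlap, had a peak within 1000 bp of the start in 35.3% and of the finish in 22.6% of 3338 cases.

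The peaks at stand-alone lncRNA ends were somewhat wider than other distal peaks and narrower than those at coding genes. They were 93 to 4410 bp wide, with a median of 458 bp and quartiles at 323 and 694 bp. The 75173 other peaks more than 5 kb from coding genes had a median of 411 bp (quartiles 306 and 571 bp), the 6212 peaks at the ends of other lncRNA genes had 576 bp, and the 21863 at coding gene ends had 782 bp. At least 1000 bp were spanned by 401 of the 4300 (9.33%), against 3.50% of the other distal peaks and 38.5% of peaks at coding ends.

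**Figure D2:**
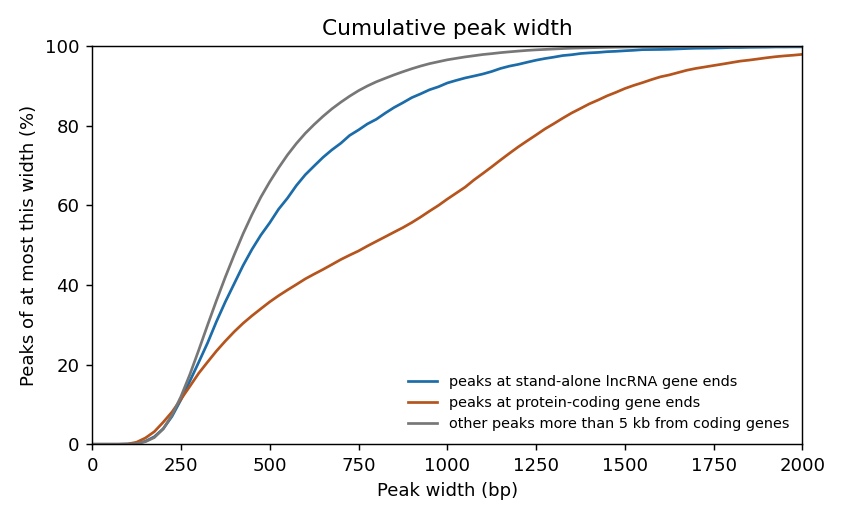
Percent of peaks (y axis) with at most the width on the x axis (bp), for the 4300 peaks at stand-alone lncRNA gene ends, 21863 at protein-coding gene ends and 75173 other peaks more than 5 kb from coding genes. The lncRNA line runs between the others, with medians of 458, 782 and 411 bp.

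Width depended on where the peak sat. Peaks over a start had a median of 647 bp (807 peaks), and those in the window of a start but not over it had 417.5 bp (1286 peaks), close to the 411 bp of other distal peaks. Over a finish the median was 532.5 bp (248 peaks), and beside one it was 421 bp (1169 peaks). A wide peak is more likely than a narrow one to cover any given base, which raises the medians over starts and over finishes alike. Peaks over coding starts had a median of 1152 bp and those over coding finishes 687 bp. Of all pairs of a peak and a stand-alone lncRNA end, 29.5% had the peak over the end and 30.5% outside the gene, and in the rest the peak lay inside it.

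The number of peaks fell with distance from the end and showed no step at the limit of 1000 bp. Over an end itself lay 1338 peaks, a further 872 within 250 bp, 748 at 251 to 500 bp, 674 at 501 to 750 bp and 668 at 751 to 1000 bp. Past the limit, 1176 lay at 1001 to 1500 bp. Just inside were peaks of 344 bp at Chaer1 and 220 bp at Gm35326, each 1000 bp from an end, and just outside, at 1001 bp, peaks of 1168 bp at Gm41297 and 379 bp at Gm39322. For the distance to coding genes, Gm34847 (5019 bp from Piezo1, 1 end peak of 275 bp) and Gm33560 (5039 bp from Ptdss2, 1 end peak of 924 bp) were just inside. E230001N04Rik (4973 bp from Armc12) and Gm4598 (4903 bp from Tex101), with 2 end peaks each, were just outside.

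Promoters with many CG dinucleotides, like those of Miat and Snhg5 printed above, were rare at stand-alone lncRNA genes but usually lay under a peak. Of 4759 promoters, 57 held 21 or more CG dinucleotides (1.20%), and 50 of these had a peak over the start that the promoter entry gives (87.7%, exact 95% interval 76.3 to 94.9%). With 11 to 20 the share was 44.5% of 227 (37.9 to 51.2%), with 6 to 10 it was 25.7% of 900, with 3 to 5 it was 16.4% of 1669, with 1 to 2 it was 9.76% of 1516, and with none it was 7.18% of 390 (4.82 to 10.2%). These intervals cover counting only. Protein-coding promoters had 21 or more in 34.9% of cases.

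Within the same class of CG content the lncRNA and coding starts still differed in places, though CG content was not matched inside a class. With 11 to 20 CG dinucleotides, 89.2% of 3579 coding starts lay under a peak (88.1 to 90.2%), against the 44.5% of stand-alone lncRNA starts. With 6 to 10 the values were 47.7% and 25.7%. With 3 to 5 they were near each other, at 18.6% and 16.4%, and with 1 to 2 the order turned, at 5.62% for coding and 9.76% for stand-alone lncRNA starts. With none the values were 2.57% for coding and 7.18% for stand-alone lncRNA starts, and with 21 or more they were 97.2% and 87.7%. Most peaks over stand-alone lncRNA starts thus had few CG dinucleotides beneath them, with a median of 5 per promoter (831 genes by the starts of the promoter entries, 827 by the outermost gene ends), against 22 under peaks over coding starts.

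**Figure D3:**
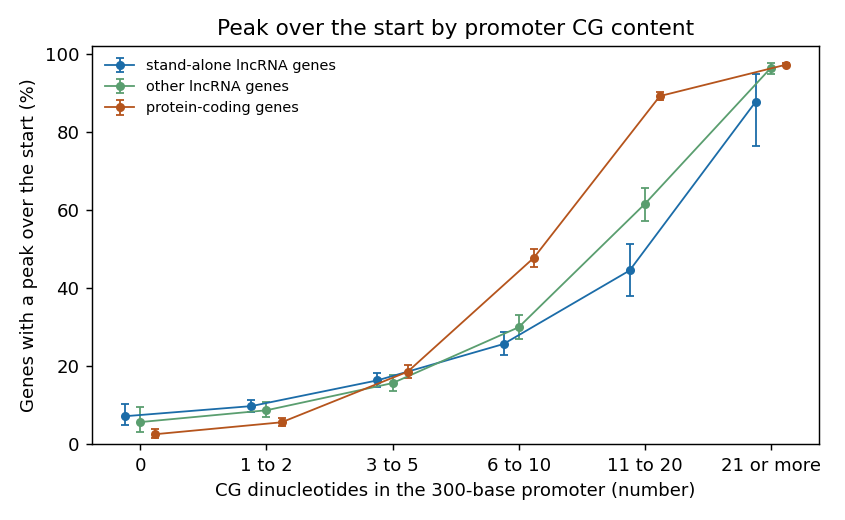
Percent of genes with a peak over the annotated start (y axis) by the number of CG dinucleotides in the 300-base promoter (x axis), for stand-alone lncRNA, other lncRNA and protein-coding genes, with exact 95% intervals. All 3 lines rise with CG content, and at 11 to 20 CG dinucleotides the stand-alone lncRNA point is at 44.5% and the coding point at 89.2%.

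Width followed CG content as well. Over stand-alone lncRNA starts with no CG dinucleotides the median peak was 539.5 bp wide, with 1 to 2 it was 556.5 bp and with 3 to 5 it was 569 bp. With 6 to 10 it was 675 bp, with 11 to 20 it was 910 bp and with 21 or more it was 1207.5 bp. The corresponding medians at coding starts were 477, 546.5, 791.5, 976, 1083 and 1255 bp. With 1 to 2 and with 21 or more CG dinucleotides the 2 kinds of gene therefore had similar widths. In the classes between these the coding medians were larger. With none the lncRNA median was larger, from 28 lncRNA and 21 coding genes.

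Short motifs were counted in the same 300-base windows on both strands, with overlaps allowed. GGGCGG, the GC box bound by SP factors, was found in 18.7% of the 831 stand-alone lncRNA promoters with a peak over the start and in 6.36% of the 3928 without, against 36.3% of all 25747 autosomal promoters. TGACGTCA, the cyclic AMP response element bound by CREB and ATF factors, was found in 1.68% and 0.611%, against 1.90% of all. TGANTCA, the AP-1 motif of FOS and JUN, was found in 13.6% and 10.1%, against 7.98% of all promoters. TGATGNAA, the letters of the composite element bound by Atf4 with C/EBP partners, was found in 3.85% and 5.86%, against 3.87% of all. For the CAGATG E-box of neuronal bHLH factors the values were 22.0% and 23.6%, against 17.3% of all promoters. For CCAAT they were 33.6% and 38.2%, against 37.9% of all, and for TATAAA 15.2% and 18.9%, against 14.2%. A further motif counted, 10 bases long, was found in 5.17% and 4.38%, against 3.74% of all. The promoters with a peak also had more G and C (50.0% against 45.8%), and the part of base composition in these shares was not tested. A match of letters is not evidence that a factor binds there.

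Among lncRNAs known by name, most that stood alone had a peak at an end. Of 106 symbols in 6 lists, 87 genes were found in the RefSeq table, 45 of them lay over or within 5 kb of a coding gene, 7 were of another type or on another chromosome, and 35 stood alone. Of these 35, 28 had a peak at an end. Among the 23 with a strand, 17 had a peak over the start. The lists were chosen with earlier results of these data known, so these shares describe familiar genes and not lncRNAs at large, where the share was 48.3%.

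All 9 stand-alone genes of the list of nuclear and broadly expressed lncRNAs had an end peak. Miat, a neuronal nuclear lncRNA (chromosome 5, 112213228 to 112228948), lay under 2058 bp of accessible sequence at its start (112227330 to 112229387) and had a peak of 1644 bp inside the gene, 190 bp from its finish. Malat1, which gathers in nuclear speckles (chromosome 19, 5795690 to 5802672), had 5 end peaks. Those at its start were 93, 314, 464 and 1212 bp wide, with the 464 bp peak over the start itself (5802256 to 5802719), and the widest, of 2283 bp, lay beyond its finish (5793158 to 5795440). The start of Malat1 thus had several separate intervals and that of Miat a single wide one. Neat1, the scaffold of paraspeckles (chromosome 19, 5824708 to 5845480), had peaks of 222 and 1364 bp, neither of them over an end, 928 bp from the lower and 431 bp from the upper one.

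The other 6 genes of this list each had a peak over an end. Oip5os1, also known as Cyrano and tied to decay of a microRNA, had 1236 bp over its start. Tunar, linked to neural differentiation, had 1261 bp over its start and no other end peak. Lncpint had 1178 bp over its start and 1268 bp inside the gene, 935 bp from it. Pvt1, a neighbour of Myc, had 960 bp over an end and Norad, which binds Pumilio proteins, had 733 bp. Trp53cor1, a p53-induced lncRNA near Cdkn1a, had 453 bp over an end, the narrowest peak over an end among the 9 genes.

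Of 6 stand-alone genes of the neural development list, 4 had an end peak. C130071C03Rik (chromosome 13, 83721381 to 83741308), whose nearest coding gene was Mef2c at 54.3 kb, had 1774 bp over its start (83720839 to 83722612), and this peak also lay at the start of Gm52046 on the opposite strand. Dubr had 1130 bp over its start and Pantr2, 6851 bp from the cortical transcription factor gene Pou3f3, had 927 bp. Rmst, which acts with SOX2 in neurogenesis, had 767 bp over an end and 207 bp inside the gene, and no coding gene within 519.6 kb. Gm26871 and Gm38509, the latter listed as Peril, had none. Gm38509 had 4 CG dinucleotides in its promoter.

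MicroRNA hosts had end peaks in 5 of 7 cases and small nucleolar RNA hosts in 4 of 4. Mir124a-1hg, host of the neuronal microRNA miR-124, had 4 end peaks, of 166, 484, 1141 and 1695 bp, the widest over its lower-coordinate end. Mir9-3hg, host of another microRNA of neural cells, also had 4, of 224, 467 and 699 bp at its start and 1732 bp beyond its finish. Its promoter held 35 CG dinucleotides. Mir124-2hg had 4 narrow ones, of 184 to 353 bp, and Mir99ahg had 210 and 245 bp at its start. Mir100hg had 4, with 1046 bp over its start. The hosts with none were Mir17hg, described above, and Lncppara, listed as Mirlet7bhg. Snhg5, Snhg11, Snhg17 and Snhg20 each had a peak over the start, of 1402, 1125, 1291 and 964 bp, and Snhg11 had another of 1491 bp over its finish.

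The imprinted genes H19 and Mirg stood alone, and they differed. Mirg, a microRNA-bearing transcript of the Dlk1-Dio3 domain, had 877 bp over its start and 236 and 1114 bp at its finish. H19 had none. Of 7 stand-alone genes listed for other tissues, 5 had an end peak. Bvht, a cardiac lncRNA, had 4, of 289 to 1441 bp. Morrbid, a myeloid lncRNA, had 502 bp over its start and 813 bp inside the gene. Lincmd1 of muscle had 296 and 310 bp, neither over an end, and Lncenc1 of embryonic stem cells had 345 bp in the window of its start and 545 bp over its finish. Hotair, within the HoxC cluster, had 404 bp at 602 bp from an end. Platr4 and Halr1 had none. An end peak was therefore not limited to lncRNAs known from neural tissue, and over the start itself only Morrbid of the 3 genes of this list with both a strand and an end peak had one.

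**Figure D4:**
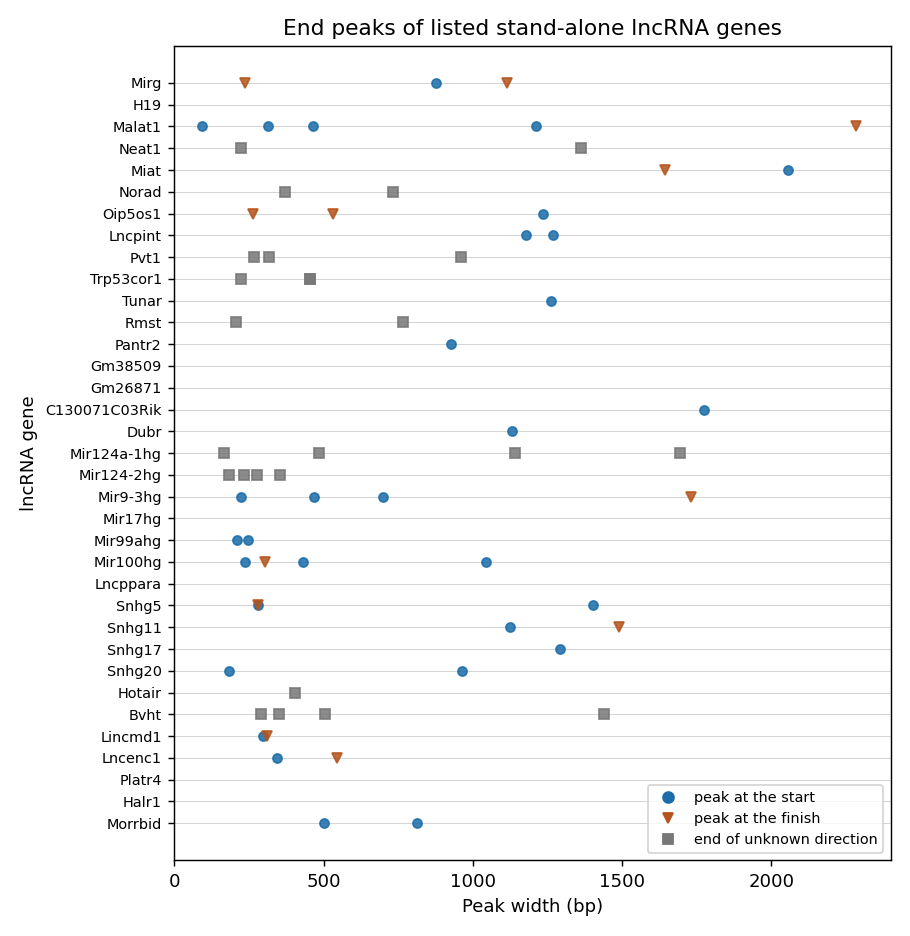
Width in bp (x axis) of each end peak of the 35 listed stand-alone lncRNA genes (y axis), with circles for the start, triangles for the finish and squares for genes without a strand. The widest are 2283 bp beyond the finish of Malat1 and 2058 bp at the start of Miat, and the 7 genes with no symbol on their line had no end peak.

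The widest peaks lay at a mixture of named and predicted genes. On chromosome 17 (39842965 to 39847374) the widest of all, 4410 bp, was found 738 bp beyond the finish of AY036118 and overlapped Rn18s-rs5, an 18S ribosomal RNA related sequence. Ribosomal RNA has many near-identical copies, so where the reads of this peak came from is uncertain. Next was the peak of 2899 bp over the start of Gm51701 (chromosome 9, 123923086 to 123925984), 36.1 kb from the chemokine receptor gene Ccr1. A peak of 2627 bp on chromosome 18 (35918919 to 35921545) lay at C330008A17Rik and over Gm36416, 42.3 kb from Psd2. Gm26615 (2402 bp, near Ahdc1), Malat1 (2283 bp), B330016D10Rik (2241 bp, near Spen), Zfp652os (2152 bp), Miat (2058 bp), A330102I10Rik (2024 bp, 60.3 kb from the transcription factor gene Sox4) and Gm31569 (2015 bp, 246.1 kb from the neuronal zinc finger gene Myt1l) followed. The narrowest of the set, of 93 bp, lay at the start of Malat1.

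Malat1 was 1 of 9 genes with 5 end peaks, the most of any. The others were Gm16863, Gm30187, Gm32630, Gm34081, Gm35833, Gm39962, Gm51682 and Lexis1. Of these, Gm34081 (chromosome 12, 109493125 to 109540149) lies in the imprinted domain between Dlk1 and Rtl1. It had peaks of 241 bp over its start, 415, 176 and 517 bp beside it and 711 bp beyond its finish. The 3 of 241, 176 and 517 bp are also the peaks at the lower-coordinate end of Meg3, the maternally expressed lncRNA of that domain, which does not stand alone because it overlaps Rtl1. Gm16863, 24.2 kb from the guidance receptor gene Ephb3, had 1271, 157 and 499 bp at its finish and 428 and 236 bp at its start. Gm30187, near the crystallin gene Cryaa, had 4 of its 5 at the finish, of 193 to 386 bp, and Gm32630, near the calmodulin gene Calm3, had 601 bp over its start. Gm35833, near Ndufb4 of complex I, had 5 of 215 to 725 bp. At these 5 genes, the first by symbol of those tied, most peaks were narrower than the 458 bp median of the set. They were picked for many separate peaks in limited windows, so their widths do not describe the set.

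Genes far from any coding gene had an end peak less often. The share was 51.0% of 1622 genes at 5 to 20 kb (exact 95% interval 48.5 to 53.4%), 50.0% of 2580 at 20 to 100 kb, 46.3% of 1774 at 100 to 500 kb and 27.6% of 257 at 500 kb or more (22.3 to 33.5%). Starts and finishes also had lower values in the farthest than in the nearest class, from 37.8% to 19.4% at starts and from 26.2% to 9.69% at finishes. By gene length the share with a peak at either end showed no order, with 47.0% of genes under 2 kb and 47.4% of those of 50 kb or more. The share at the finish fell with length, from 37.7% under 2 kb to 25.1% at 2 to 10 kb, 22.3% at 10 to 50 kb and 19.5% at 50 kb or more. Genes under 2 kb had nearly equal shares at starts and finishes (37.5% and 37.7%), and their windows overlap. Across the 19 chromosomes the share ran from 39.9% on chromosome 3 to 57.1% on chromosome 12.

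**Figure D5:**
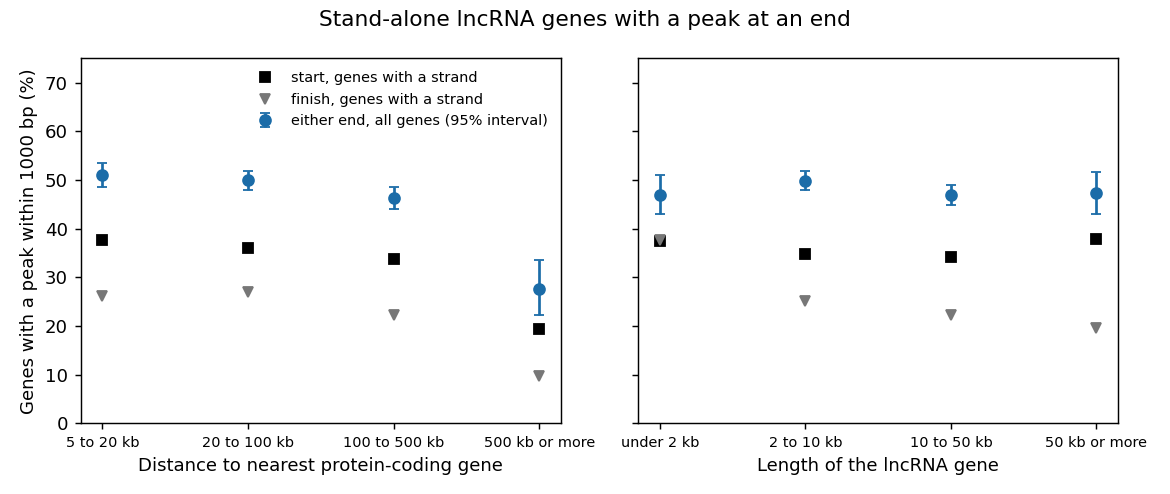
Percent of stand-alone lncRNA genes with a peak within 1000 bp of an end (y axis) by distance to the nearest protein-coding gene (left) and by gene length (right). Circles are either end with exact 95% intervals, and squares and triangles are starts and finishes of genes with a strand. The share at either end falls to 27.6% at 500 kb or more and stays between 47.0% and 49.9% over gene lengths, while the share at the finish falls from 37.7% to 19.5% with length.

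Curated genes had more peaks over the start than predicted ones. Of the 1187 genes with a strand and a curated RefSeq transcript, 24.4% had one, against 15.0% of 3572 with predicted transcripts alone. At the finish the 1000 bp windows held a peak in 24.3% and 24.8%. Genes with a name of their own, rather than a LOC, Gm or Rik name, had an end peak in 87 of 143 cases (60.8%).

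The coding neighbours of the 4300 peaks lay at a median of 50.6 kb, with quartiles of 22.6 and 126.5 kb. Other peaks more than 5 kb from coding genes lay at a median of 64.6 kb (quartiles 21.9 and 183.9 kb). The 6233 stand-alone lncRNA genes themselves, with or without an end peak, lay at a median of 49.2 kb (quartiles 19.2 and 139.7 kb). Of these genes, 4.12% were at 500 kb or more. Of the 4300, 935 had a coding gene within 20 kb (21.7%), 2051 at 20 to 100 kb, 1218 at 100 to 500 kb and 96 at 500 kb or more (2.23%, against 6.59% of the other distal peaks). The peak itself lay within 5 kb of a coding gene in 26 cases, and none lay at a coding gene end. The farthest was a peak of 624 bp at Gm33860 on chromosome 18, 2103 kb from Pik3c3, followed by BC051408 (268 bp, 1538 kb from the same gene). Then came 1700019L22Rik, with 1800 bp at 427 bp inside its start and 1392 kb from the teneurin gene Tenm3, and Gm46835, with 370 and 431 bp and 1164 and 1163 kb from the protocadherin gene Pcdh18.

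As nearest genes, 2045 coding genes were named by the set, 1036 of them by 1 peak, 161 by 5 or more and 18 by 10 or more. The gene nearest to most was Tle3, a Groucho-family corepressor, with 20 peaks at 10 lncRNA genes, 23.1 to 227.4 kb away. It was also nearest to 64 other distal peaks. Cryba4, a lens crystallin gene next to Miat, had 15 peaks at 8 lncRNA genes, and Irs2, which relays insulin receptor signals, had 15 at 7 (55.7 to 168.0 kb away). Npvf, the precursor of a hypothalamic neuropeptide, had 13 at 6, and the predicted gene Gm40514 had 12 at 7, as many as Gm46320. Other distal peaks nearest to Cryba4, Irs2, Npvf, Gm40514 and Gm46320 numbered 61, 37, 28, 53 and 51. Nearness on the chromosome does not show that a site acts on a gene.

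Families of coding genes were set by symbol and are not complete: Lmx1b, Myog, Hlx and Batf3, for example, encode transcription factors outside the families used, and Zfp genes were counted apart. Genes of the transcription factor families used were the nearest coding gene of 328 of the 4300 peaks (7.63%), against 6.58% of other distal peaks and 2.62% of all protein-coding genes. For the stand-alone lncRNA genes themselves the share was 7.98% of the 3009 with an end peak and 9.18% of the 3224 without. Id4 and Tshz2 had 10 peaks each, Pou3f1 had 8, Id2 and Msx2 had 7, and Cebpb, Msx1 and Pax2 had 6. Other distal peaks nearest to these genes, in the same order, numbered 51, 28, 34, 70, 30, 17, 10 and 14. Id2 and Id4 encode inhibitors of bHLH factors, and Pou3f1 a POU factor of neural cells. Cebpb encodes a bZIP partner of Atf4, and its 6 peaks had a median width of 514 bp and lay 77.5 to 98.8 kb away. Genes of cell adhesion and axon guidance were nearest to 2.44% of the 4300 peaks and 4.47% of other distal peaks, with 9 peaks for the netrin receptor gene Unc5a. Ion channel and transmitter receptor genes were nearest to 1.58% and 2.80%, with 5 for Grik3 and for Adrb1. Other distal peaks nearest to Unc5a, Grik3 and Adrb1 numbered 16, 67 and 12. Among the lncRNA genes themselves, an adhesion or guidance gene was nearest to 2.53% of those with an end peak and 3.72% of those without, and a channel or receptor gene to 1.69% and 1.77%.

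Olfactory and vomeronasal receptor genes, which form large gene clusters, were nearest to 45 stand-alone lncRNA genes, of which 10 had an end peak (22.2%, exact 95% interval 11.2 to 37.1%). This was the lowest share of the 5 families, the others lying between 38.4% for zinc finger Zfp genes and 47.2% for channels and receptors. Of genes whose nearest coding gene was in none of the 5 families, 49.5% had an end peak.

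Some peaks lay in the end windows of more than 1 gene. At the ends of 2 or more stand-alone lncRNA genes lay 160 peaks, 1 of them at 3 genes. In 49 cases the peak was at the starts of genes on opposite strands, with a median width of 521 bp. Some pairs of genes had more than 1 such peak, and whether the genes point away from each other was not examined. The widest of these, after the one shared by C130071C03Rik and Gm52046, were at 1700031P21Rik and Gm35239 (1392 bp, 30.9 kb from Arhgap5) and at Gm33224 and Gm39693 (1302 bp, 44.9 kb from the POU factor gene Pou2f1). A further 32 peaks also lay at an end of an lncRNA gene within 5 kb of a coding gene. On genes of other types lay 51 peaks, among them 21 on tRNA genes (0.488% of the set, against 0.160% of other distal peaks), 10 on pseudogenes, 4 on small nucleolar RNA genes and 3 on microRNA genes.

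The authors' score was at its ceiling of 1000 for all but 55 of the 4300 peaks (1.28%, against 1.53% of all autosomal peaks). The lowest, of 168.0, belonged to a peak of 175 bp, 976 bp beyond the finish of Gm28905. The next were at D330037F02Rik (201 bp), Gm34439 (157 bp), Gm39867 (239 bp) and Gm42788 (214 bp), all narrow against the median of 458 bp.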

How the data were processed

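The submitters made ATAC-seq libraries from 18 samples, sequenced per the labels in paired reads of 50 bp, and the processed data used here are 1 list of consensus peaks. Per the submitters' processing notes, MACS2, deepTools, MultiQC and the build mm10 were used. The peak names begin with MSPC, a program that combines peaks over replicates. The aligner, the shift for the transposase, the treatment of duplicates and mitochondrial reads, the thresholds and which samples entered the list are steps not given in the sources used here. Each peak has a deposited score, with a ceiling of 1000, which served only for description. The deposited interval starts were converted to count from 1.

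RefSeq genes of GRCm38.p6, the assembly behind mm10, were given by their outermost ends without strand. After 348 genes on scaffolds were left out, the table held 12322 autosomal lncRNA genes. Strand and sequence came from a RefSeq promoter table of the same build, for the promoter nearest the outermost start. Distances are gaps between a peak or gene and the nearest gene body, and families of coding genes were set by symbol. Intervals of shares are exact Clopper-Pearson at 95%. Those of medians were taken at 95% from the ranked values by the binomial distribution. They were 447 to 468 bp for the median width and 48079 to 53170 bp for the median distance. Both kinds of interval cover counting only. Tests between knockdown groups were not possible, and no other test was run. The rule was tested on simulated data with peaks planted at known places. The software was pandas 2.3.3 and numpy 2.4.6 under Python 3.11.15, with exact intervals from scipy 1.17.1 and plots from matplotlib 3.10.9.

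The regions and lists were chosen with earlier results of these data known. Named are the 10 widest peaks, the 5 genes with the most, every listed stand-alone gene, the 5 coding genes nearest to most peaks, the 5 farthest peaks, those beside each limit and those with the lowest scores. Ties, the leading genes of each family and the widest shared peaks were named after their values were seen. Alternatives are given below.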

Additional observations from a re-analysis of the deposited data

How the results depend on the processing

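No paired analysis was possible because the list holds no sample columns, and for the same reason no replicate could be left out. Under 13 alternative settings, 11 of them planned, the number of peaks stayed within 1.5 times the 4300 in 7. It was 7576 with windows of 2500 bp, 1997 for genes more than 50 kb from coding genes, 1914 with peaks of at least 500 bp, 1338 with a peak over the end itself, 153 without LOC, Gm and Rik names and 1140 with curated genes, a setting chosen after seeing the data like that of genes of 5 kb or more. The share of genes with an end peak, 48.3%, left its exact 95% interval in 8: 38.0% with windows of 500 bp, 66.3% with 2500 bp, 46.2% beyond 50 kb, 27.9% with peaks of at least 500 bp, 43.3% with the peak midpoint in the window, 20.9% with a peak over the end, 60.8% for genes with own names and 51.1% for curated genes. The median width of 458 bp left its interval in 7, at 491.5 bp (500 bp windows), 438 bp (2500 bp windows), 731 bp (wide peaks), 443 bp (midpoints), 598.5 bp (over the end), 499 bp (own names) and 470.5 bp (curated).

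The median distance to a coding gene, 50596 bp, became 44111, 62262 and 136142 bp for genes more than 2, 10 and 50 kb from coding genes, 46292 bp for own names and 59367 bp for genes of 5 kb or more. The share next to a gene of the transcription factor families used, 7.63%, became 10.1% beyond 50 kb, 8.67% over the end, 8.50% for own names and 8.95% for curated genes. Of peak and end pairs with a strand, 59.96% were at the start, and the share was 63.5% with windows of 500 bp, 76.9% over the end, 64.0% for curated genes and 62.8% for genes of 5 kb or more. The other values lay within the interval of the value reported or, for the number of peaks, within 1.5 times. Depth is unknown, so how many sites the list misses cannot be said.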

Other observations

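On chromosome X, which the rule leaves out, 174 lncRNA genes stood alone, of which 55 carried an end peak (31.6%, exact 95% interval 24.8 to 39.1%), with 79 peaks of a median width of 415 bp. Of the X inactivation centre, Xist, Jpx and Ftx were examined, and each had one. Xist, which coats the inactive X chromosome, had end peaks of 1390 and 571 bp. Jpx, which promotes Xist expression, had 1 of 815 bp, and Ftx had 3, of 220, 535 and 527 bp. Firre, a nuclear lncRNA elsewhere on X, had 3, of 168, 792 and 302 bp. These genes were chosen after the autosomal values were seen, and the embryos' sex is not in the labels.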
